A study of Homo sapiens with 2 samples.

Results

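Histone arginine methylation is written, read and restrained by a small set of proteins, and the mark H4R3me2a, asymmetric dimethylation of an arginine in the tail of histone H4, was mapped here over the genes for 10 of them. The genes were taken by name and are PRMT1, CARM1, PRMT7, PRMT5, WDR77, CLNS1A, TDRD3, JMJD6, BTG1 and BTG2. Every peak was kept whose summit lay in the body of one of these genes or within 1 kb of one of their transcription start sites (TSSs), which gave 25 of the 33353 peaks deposited. The cells were HCT116, an established human colorectal carcinoma line, without drug treatment. One chromatin immunoprecipitation library with an antibody against H4R3me2a was compared with 1 library of input DNA from the same line. There were no replicates, so no difference below has a replicate check, and no test was added to the authors' peak calls.

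PRMT1 is the main enzyme that places H4R3me2a. CARM1 also makes asymmetric dimethylarginine, on histone H3 and on coactivators, whereas PRMT5 makes the symmetric form and PRMT7 stops at monomethylation. WDR77 is the constant partner of PRMT5, and CLNS1A leads that enzyme to the Sm proteins of the spliceosome. TDRD3 binds asymmetrically dimethylated arginine through its Tudor domain. JMJD6 is a lysyl hydroxylase for which an arginine demethylase activity has also been described and disputed. BTG1 and BTG2 are antiproliferative proteins that bind PRMT1 and modulate its activity.

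The sequences under 4 of the peaks are shown as examples of 3 of the settings in which the mark was called: the start of a gene, an intron of the writer itself, and an intron poor in CpG. Each is given on the strand of its gene in GRCh38, 5' to 3', with CpG dinucleotides in capitals, and peaks are numbered along each gene from its 5' end. Peak starts here and below are those of the authors' peak table, 2 bases after the starts of their 0-based peak list, so a start and a width may be off by 1 base. The BTG1 stretch (chr12:92145236-92145535, minus strand) starts at the ATG, holds 148 coding bases and runs on into the intron, with 32 CpGs in 300 bases. It is a part of the 520 bp peak, whose summit, in the 5' UTR, lies outside the stretch. The BTG2 stretch (chr1:203305758-203305912, plus strand) lies in its intron and has 12 CpGs in 155 bases. The PRMT1 peak of highest fold, peak 3 (chr19:49687166-49687425, plus strand) has 7 in 260. CARM1 peak 5 (chr19:10888165-10888347, plus strand) has 1 in 183.
BTG1 peak 1: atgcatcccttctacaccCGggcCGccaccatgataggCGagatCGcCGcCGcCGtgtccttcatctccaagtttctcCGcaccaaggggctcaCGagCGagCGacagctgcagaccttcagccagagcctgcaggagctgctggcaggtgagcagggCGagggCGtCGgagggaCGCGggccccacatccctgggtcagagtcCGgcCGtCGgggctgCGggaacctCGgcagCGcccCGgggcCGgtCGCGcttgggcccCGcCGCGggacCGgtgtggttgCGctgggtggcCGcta
BTG2 peak 1: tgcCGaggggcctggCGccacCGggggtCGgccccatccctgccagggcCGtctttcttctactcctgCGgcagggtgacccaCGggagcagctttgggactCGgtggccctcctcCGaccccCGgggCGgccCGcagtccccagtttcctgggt
PRMT1 peak 3: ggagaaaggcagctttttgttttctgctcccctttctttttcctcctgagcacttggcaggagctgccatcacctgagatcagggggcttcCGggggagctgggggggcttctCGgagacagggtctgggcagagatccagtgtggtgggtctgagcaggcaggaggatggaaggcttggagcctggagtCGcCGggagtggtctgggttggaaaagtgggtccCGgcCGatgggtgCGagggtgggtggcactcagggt
CARM1 peak 5: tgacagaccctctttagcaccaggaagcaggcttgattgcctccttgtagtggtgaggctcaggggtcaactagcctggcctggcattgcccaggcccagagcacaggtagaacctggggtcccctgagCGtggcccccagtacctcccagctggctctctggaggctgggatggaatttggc

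Peaks were found in 7 of the 10 genes, which were chosen with earlier results of these data known. CARM1 had 12, PRMT1 and JMJD6 had 4 each, BTG2 had 2, and BTG1, PRMT7 and CLNS1A had 1 each, while PRMT5, WDR77 and TDRD3 had none. By the same rule 9423 of 19970 protein-coding genes (47.2%) had a peak, with a median of 0 per gene. Among protein-coding genes 11.9% had 4 or more peaks, as PRMT1, JMJD6 and CARM1 did, and 1.29% had 12 or more, as CARM1 did. Of the 25 peaks, 16 lay on chromosome 19, in PRMT1 and CARM1.

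**Figure D1:**
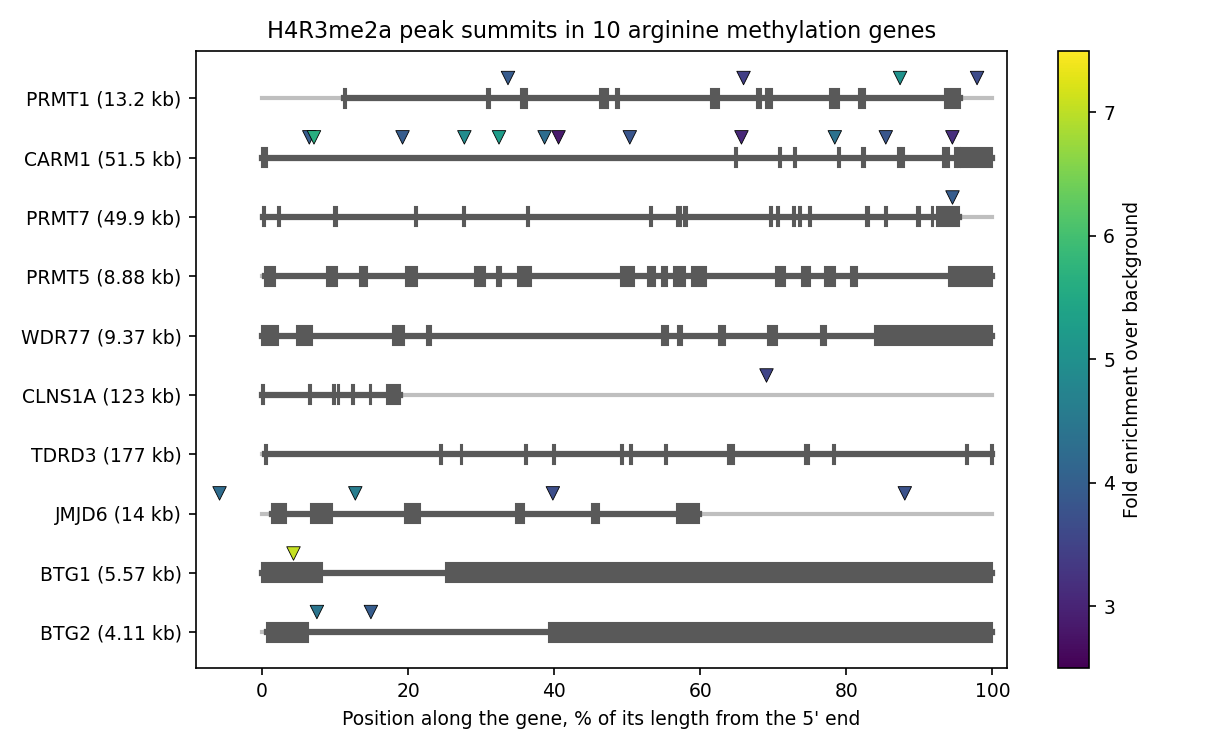
Positions of the 25 peak summits (triangles, coloured by the authors' fold enrichment) along the 10 genes, each drawn to the same width with its 5' end at the left. The x axis is the position in percent of the gene's length. Dark boxes are exons of the canonical transcript, the dark line is the extent of that transcript and the pale line is the rest of the gene. The 12 CARM1 summits run along most of the gene, whereas the BTG1 and BTG2 summits sit near the 5' end.

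Start sites gave a smaller count than gene bodies. A summit within 1 kb of any annotated TSS was found in 5 of the 10 genes, namely PRMT1, CARM1, JMJD6, BTG1 and BTG2, against 31.6% of protein-coding genes. Many of the TSSs concerned are starts of short transcripts inside the gene. With TSSs of transcripts typed as protein-coding, the count was 4 of 10, without PRMT1, against 27.0% of genes. With the TSS of the canonical transcript alone it was 2 of 10, BTG1 and BTG2, against 21.4%. All 10 canonical promoters were GC-rich, from 52.4% at CLNS1A to 81.7% at CARM1 over the 500 bp on either side, with CpG observed to expected ratios of 0.596 to 1.02. BTG1 and BTG2, at 62.7% and 69%, lay inside that range.

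The 4 peaks of PRMT1 lay inside and at the end of the gene (ENSG00000126457, plus strand of chromosome 19, 49675786 to 49689029), and none lay within 1 kb of its canonical TSS. Peak 1 (49680153 to 49680282) had its summit in intron 2 of the canonical transcript, 2975 bp from that TSS. It coincided with coding sequence of 2 of the 21 annotated transcripts, the only one of the 25 summits to lie in coding sequence. Peak 2 (49684425 to 49684571) was in intron 6 and peak 3, in intron 10, was 10084 bp from the TSS. Peak 4 (49688523 to 49688805) lay 304 bp beyond the end of the canonical transcript, in an exon of a longer transcript, and within 1 kb of the start of the neighbouring gene ADM5.

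In fragments at the summit, the H4R3me2a library had 9, 10, 14 and 12 at PRMT1 peaks 1 to 4, over backgrounds of 1.56, 2.2, 1.97 and 2.56. The background is the number of fragments that the caller expected there, recovered from the authors' fold, which is the pileup plus 1 over the background plus 1. The folds were 3.91, 3.43, 5.05 and 3.65, so peak 3 stood above 82.6% of all peaks in the list and the other 3 below its median of 4.18. The 95% Poisson interval of the 14 fragments at peak 3, 7.65 to 23.5, overlapped that of the 9 at peak 1, 4.12 to 17.1. The TSSs nearest to all 4 summits, 310 to 898 bp away, were those of transcripts with a retained intron or with no defined coding sequence. Another peak, with 15 fragments over 3.07, lay 279 bp beyond the gene and fell outside the rule. The upstream neighbour BCL2L12, 1870 bp away, had 3 peaks, and its closest summit was 2444 bp from PRMT1.

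CARM1 (ENSG00000142453, plus strand of chromosome 19, 10871553 to 10923075) carried its 12 peaks over 45.4 kb, with gaps of 331 to 7875 bp between neighbouring summits. All 12 summits lay in introns, and none coincided with an exon of any of its 11 transcripts. Intron 1 held 8 of the 12, and this intron makes up 64.1% of the gene. The remaining peaks were in introns 2, 4, 6 and 10. Exons of any transcript make up 8.58% of the gene. The first summit was 3335 bp from the TSS, so the CpG-rich start of CARM1 itself had none.

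The CARM1 peaks had pileups of 7 to 15 fragments (median 10.5), over backgrounds of 0.778 to 3.59. Peak 2 (10875147 to 10875416) had the highest fold, 5.63, from 9 fragments over 0.778. Peak 5 (10888165 to 10888347) had the highest pileup, 15 fragments over 2.05, with a fold of 5.25. The lowest fold, 2.84, was that of peak 7 (10892338 to 10892516), where 12 fragments stood over 3.59, and only 0.552% of all peaks had a lower one. The order by fold was thus not the order by pileup. Peak 12 (10920093 to 10920251), in intron 10, was the 1 CARM1 peak within 1 kb of a TSS, 321 bp downstream of the start of a short internal transcript. The widest was peak 10 (10911897 to 10912262), with 366 bp reaching into an exon. C19orf38 upstream, TIMM29 downstream and YIPF2, which overlaps the 3' end on the opposite strand, had 3, 1 and 3 peaks of their own, none shared with CARM1.

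Of PRMT7 and the PRMT5 group, PRMT7 and CLNS1A had 1 peak each, and PRMT5 and WDR77 had none. The median over protein-coding genes was 0, and 47.2% of them had a peak. The single peak of PRMT7 (chromosome 16, 68357908 to 68358144) lay in exon 19 of 19, in the 3' UTR, 47092 bp from the canonical TSS. It had 13 fragments over 2.56, a fold of 3.93. SMPD3, a sphingomyelinase gene on the opposite strand, overlaps the end of PRMT7 and had 5 peaks, none of them this one. The divergent gene SLC7A6OS starts 5 bp from PRMT7, and neither start had a summit within 1 kb.

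PRMT5 and its partner WDR77 had none, in genes of 8.88 and 9.37 kb. The nearest summits outside PRMT5 lay 43452 bp upstream and 6739 bp downstream of the gene. Around WDR77 they were farther away, at 199520 and 766441 bp, and ATP5PB, a subunit gene of the mitochondrial ATP synthase that starts 392 bp from WDR77 on the opposite strand, had none either. CLNS1A had 1 peak (chromosome 11, 77552920 to 77553105) with 5 fragments over 0.697, and no peak of the list had a lower pileup. Its summit lay 61526 bp beyond the end of the canonical transcript, in an intron of 1 of 12 transcripts, one annotated as a target of nonsense-mediated decay. With the gene bounds of RefSeq it is not in CLNS1A at all.

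TDRD3, the reader, had no peak in 177 kb on chromosome 13 and lay in a region without any. The nearest summits were 7448807 bp upstream and 6656684 bp downstream of the gene. Its neighbours DIAPH3 and PCDH20 had none. The canonical promoter of TDRD3 was GC-rich, at 67.5%, but 3.62% of the 442 windows laid along the gene, as wide as those around the summits, reached a GC content of 50%.

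JMJD6 had 4 peaks on chromosome 17, and 1 of them lies upstream of the gene. JMJD6 (ENSG00000070495, minus strand, 76712832 to 76726799) starts 31 bp from METTL23, a gene read in the opposite direction, whose protein is known in mouse as a methyltransferase of histone H3 arginine. Peak 1 (76727482 to 76727672) had its summit 812 bp upstream of JMJD6, within METTL23, with 7 fragments over 0.881 and a fold of 4.25. A peak farther along METTL23, 1338 bp from JMJD6, fell just outside the rule, with 10 fragments over 0.92 and a fold of 5.73. Both belong to METTL23 by position, which had 3 peaks in all.

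Within JMJD6 the pileups were 13 fragments over 2.05 at peak 2, 14 over 3.07 at peak 3 and 9 over 1.67 at peak 4, with folds of 4.59, 3.68 and 3.75. Peak 2 was in intron 2 and peak 3 (76721201 to 76721336) in intron 4, where a small non-coding RNA gene is also annotated. Peak 4 (76714482 to 76714619) lay 3944 bp beyond the end of the canonical transcript, in an exon of 2 of the 8 transcripts. The gene downstream, MXRA7, had 10 peaks.

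BTG1 and BTG2, which code for the partners of PRMT1, had their peaks at the start of the gene. The BTG1 peak (minus strand of chromosome 12, 92145198 to 92145717) was the widest of the 25, with 520 bp, wider than 96.9% of all peaks. It covered part of exon 1, the start of the coding sequence and part of the intron, and its summit lay 234 bp downstream of the TSS, in the 5' UTR. The pileup was 11 fragments over 0.697, and the fold of 7.07 was above 99.4% of the list. That background was the lowest recovered for any peak, and 9 of the other 24 peaks had a higher pileup than BTG1. It was the 1 peak of the 25 (4.0%) with a −log10 q of 5 or more, against 3.84% of all peaks. The long non-coding gene BTG1-DT starts 273 bp away on the opposite strand and also contains the summit.

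The pair of BTG2 peaks (plus strand of chromosome 1, 203305758 to 203305912 and 203306099 to 203306295) lay in its intron, 281 and 585 bp downstream of the canonical TSS and 304 bp from each other. Their pileups were 8 fragments over 1.02 and 9 over 1.54, with folds of 4.45 and 3.94. Both were also within 1 kb of the start of BTG2-DT, a divergent non-coding gene 176 bp away. The nearest protein-coding neighbours, CHIT1 and FMOD, lay over 31 kb from BTG2 on either side and had 4 and 0 peaks.

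**Figure D2:**
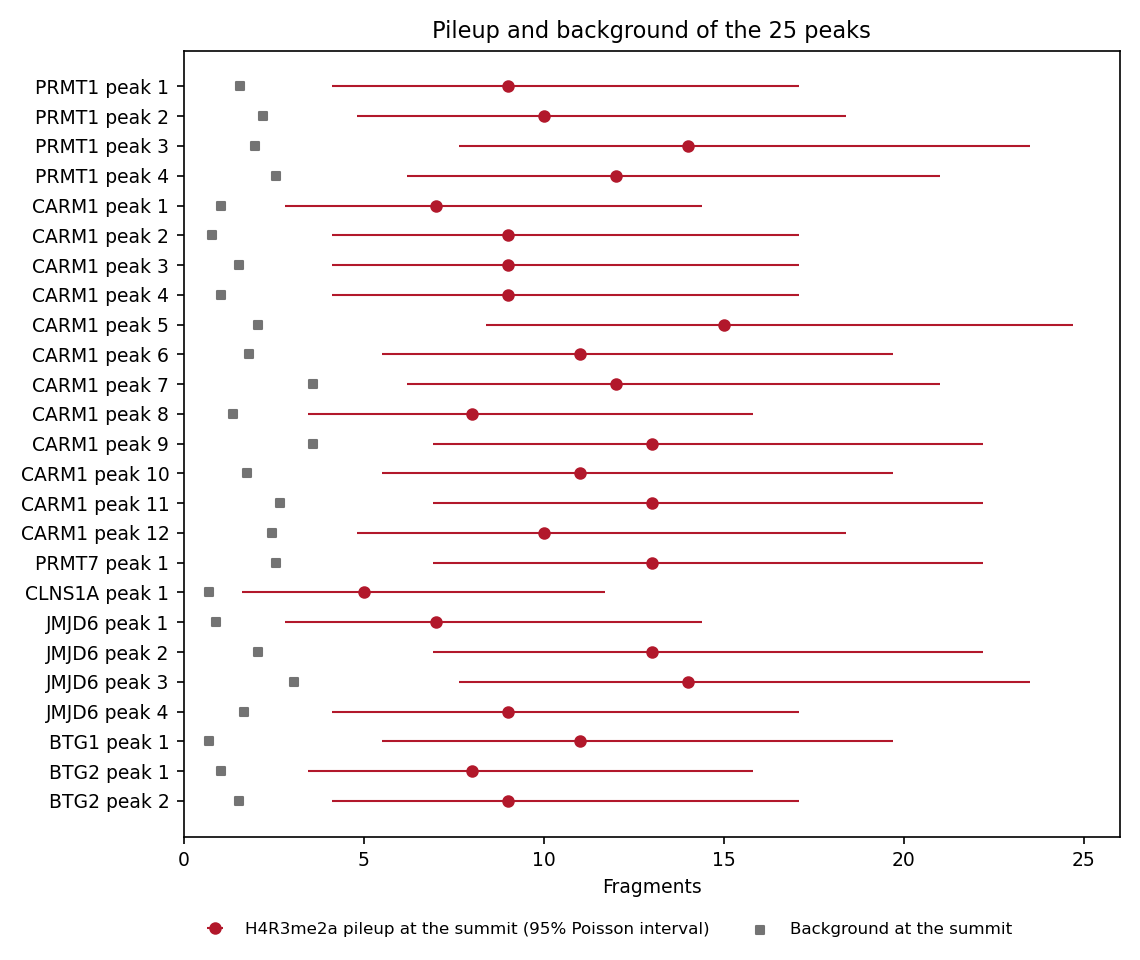
Fragments at the summit of each of the 25 peaks in the H4R3me2a library (circles, with 95% Poisson intervals) and the background at the same place (squares), on a linear axis. Pileups run from 5 fragments at CLNS1A to 15 at CARM1 peak 5, and every interval overlaps every other.

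Set beside the whole list, the 25 peaks were ordinary in size. Their median pileup was 10 fragments, equal to that of all 33349 peaks on chromosomes 1 to 22 and X. The median fold was 3.94 against 4.18 in the list, over a median background of 1.74 against 1.54. Widths had a median of 191 bp against 185 bp. Among the 300 pairs that the 25 peaks form, 0 had pileup intervals that did not overlap.

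Most summits were intronic. In the canonical transcripts 19 of the 25 lay in introns, 2 in exons (PRMT7 and BTG1) and 4 outside the transcript. Exons were also counted in protein-coding genes whatever the type of the transcript. By that count 5 of 25 (20%) were exonic, against 22.9% of all peaks and 30.4% of peaks inside protein-coding genes. In coding sequence there was 1 of 25 against 11.9% and 15.8%. The sequence around the summits, 200 bp each way, had a median GC content of 59.6%, the same as in the list, with 6 summits under 50%. The 3 summits at BTG1 and BTG2 were the only ones within 1 kb of a canonical TSS. Their CpG observed to expected ratios, over the same 200 bp each way, were 0.949, 0.711 and 0.662. The other 22 summits had 0.539 or less, against a median of 0.298 in the list.

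Exactly repeated stretches of 32 bases were found in 6 of the 25 peaks, and repeats that differ between copies were not searched for. Each summit's central 32-mer occurred once in the genome, and in 19 peaks so did all 32-mers taken every 8 bp. The exceptions were CARM1 peaks 1, 2, 4 and 12, the CLNS1A peak and JMJD6 peak 2. In JMJD6 peak 2, 7 of 30 such 32-mers occurred more than once, up to 7334 times, and in the CLNS1A peak 4 of 20, up to 404 times. The part of repeated sequence in these calls was not tested.

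Genes richer in GC had a peak more often in the whole list, so base composition is given beside the counts. PRMT1 and CARM1, at 58.2% and 54.3% GC, were in the highest of 5 equal bins of genes by GC content, where 71% of genes had a peak. TDRD3, at 36.4%, was in the lowest, where 23.2% did. Of the genes between them, PRMT7, JMJD6 and BTG2 (49.1%, 48.8% and 53.3%) were in a bin where 61.4% had a peak, PRMT5 and WDR77 (47.5% and 44.4%) in one with 45.7%, and CLNS1A and BTG1 (41.8% and 42.4%) in one with 34.6%.

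Per length, BTG2 had 4.86 summits in its body per 10 kb, PRMT1 3.02, CARM1 2.33, JMJD6 2.15, BTG1 1.8, PRMT7 0.2 and CLNS1A 0.0814. PRMT5, WDR77 and TDRD3 had none. Over all protein-coding genes, summits divided by total length came to 0.198. In the highest GC bin, that of PRMT1 and CARM1, it was 1.86, and in the bin of JMJD6, BTG2 and PRMT7 it was 0.602. It was 0.161 in the bin of PRMT5 and WDR77, 0.057 in that of CLNS1A and BTG1 and 0.0199 in that of TDRD3. By gene length, it was 1.24 in the shortest of 5 equal bins, that of BTG1 and BTG2. It was 0.969 in the next, that of PRMT1, PRMT5, WDR77 and JMJD6. It was 0.287 in the bin of CARM1 and PRMT7 and 0.0782 in the longest, that of CLNS1A and TDRD3. The value of BTG2 rests on 2 peaks in 4.11 kb and that of BTG1 on 1.

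The 1 Mb around the gene's midpoint held 126 peaks at CARM1, 121 at JMJD6 and 112 at PRMT1, against a median of 13 over protein-coding genes. It held 58 at PRMT7, 33 at BTG2, 29 at PRMT5, 15 at CLNS1A, 1 at BTG1, 1 at WDR77 and 0 at TDRD3. These counts include the peaks of the gene itself, 12 at CARM1 and 4 each at JMJD6 and PRMT1. The 3 genes with 4 or more peaks were thus the 3 with over 100 in that window. BTG1 had the reverse setting, since its own peak was the only one in that window and the next summit lay 783114 bp away. The parts of GC content, of region and of the genes themselves in these counts were not tested.

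**Figure D3:**
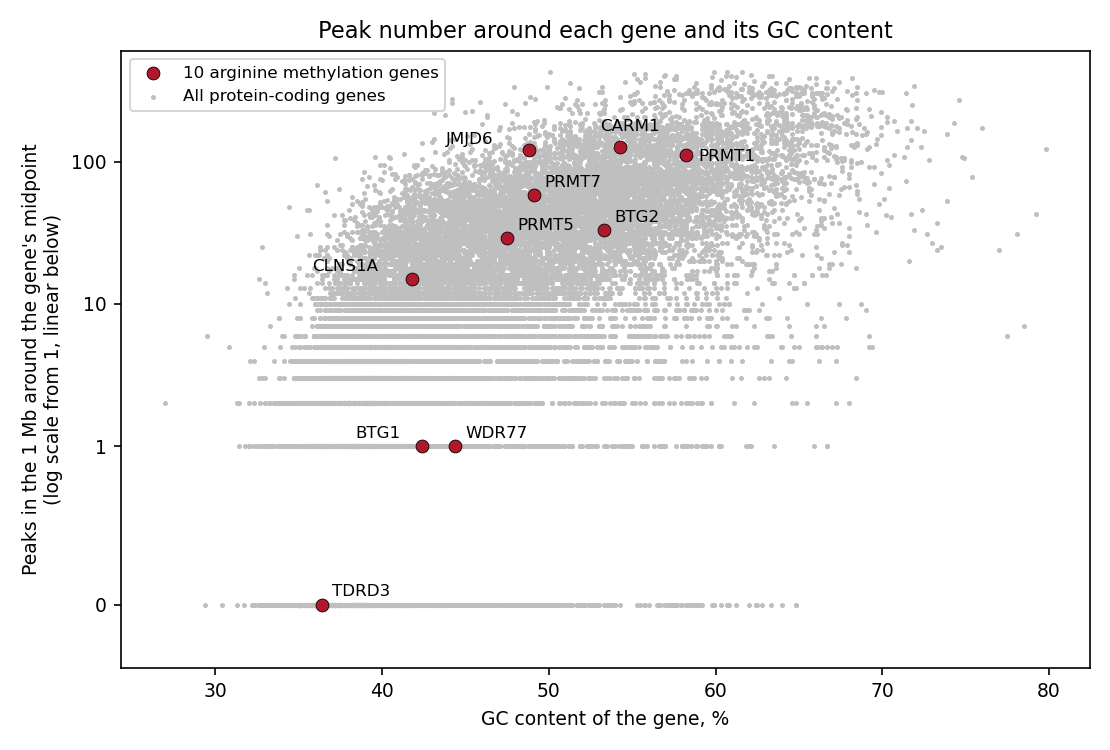
Number of peaks in the 1 Mb around each gene's midpoint, its own included (y axis, logarithmic from 1 and linear below), against the GC content of the gene in percent (x axis). The 10 genes are in red and all 19970 protein-coding genes in grey. CARM1, JMJD6 and PRMT1 lie above 100 peaks, whereas BTG1 and WDR77 have 1 and TDRD3 has 0.

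Other genes of arginine methylation, 42 in 10 lists, had a peak in 17 cases (40.5%, against 47.2% of protein-coding genes), with 39 peaks in all. None of the 5 further writers, PRMT2, PRMT3, PRMT6, PRMT8 and PRMT9, had one, in genes of 36% to 45.9% GC. Of 5 proteins that work with PRMT5 or are its substrates, RIOK1, an adaptor of the enzyme, had 2 peaks and COPRS, SNRPD1, SNRPD3 and SNRPB had none. Among 8 Tudor proteins, most of them known as readers of methylated arginine, SND1 had 3 (highest fold 7.21 from 15 fragments) and SMNDC1 1. TOP3B, the topoisomerase that TDRD3 binds, had 1 and FMR1 had none.

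Of the deiminase genes 3 of 5 had a peak, against 47.2% of protein-coding genes. It was 2 of 3 in each of the lists for dimethylarginine breakdown and the methyl donor cycle. PADI1, PADI2 and PADI4, deiminases that turn arginine into citrulline, had 5, 2 and 2 peaks, and PADI3 and PADI6 none. Of the genes listed under breakdown of free dimethylarginine, DDAH2 and DDAH1 had 3 and 1, and AGXT2 none. Of the genes for the methyl donor cycle, AHCY had 4, MAT2A, the synthase subunit that makes S-adenosylmethionine, had 1 and MAT2B none.

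Of the remaining families, TOB1 had 2 peaks (highest fold 6.65 from 17 fragments), while BTG3, BTG4, TOB2 and the deadenylase gene CNOT7 had none. Of 5 coactivators that CARM1 works with, 4 had a peak, where 47.2% of protein-coding genes did. EP300, an acetyltransferase, had 5, and NCOA1, NCOA3 and CREBBP had 1 each. These 4 genes were 87.5 to 279 kb long. EP300 had 0.572 summits per 10 kb of its body, and NCOA1, NCOA3 and CREBBP had 0.0358 to 0.0645. Over all protein-coding genes the value was 0.198. U2AF2, a splicing factor that binds JMJD6, had 4.

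**Figure D4:**
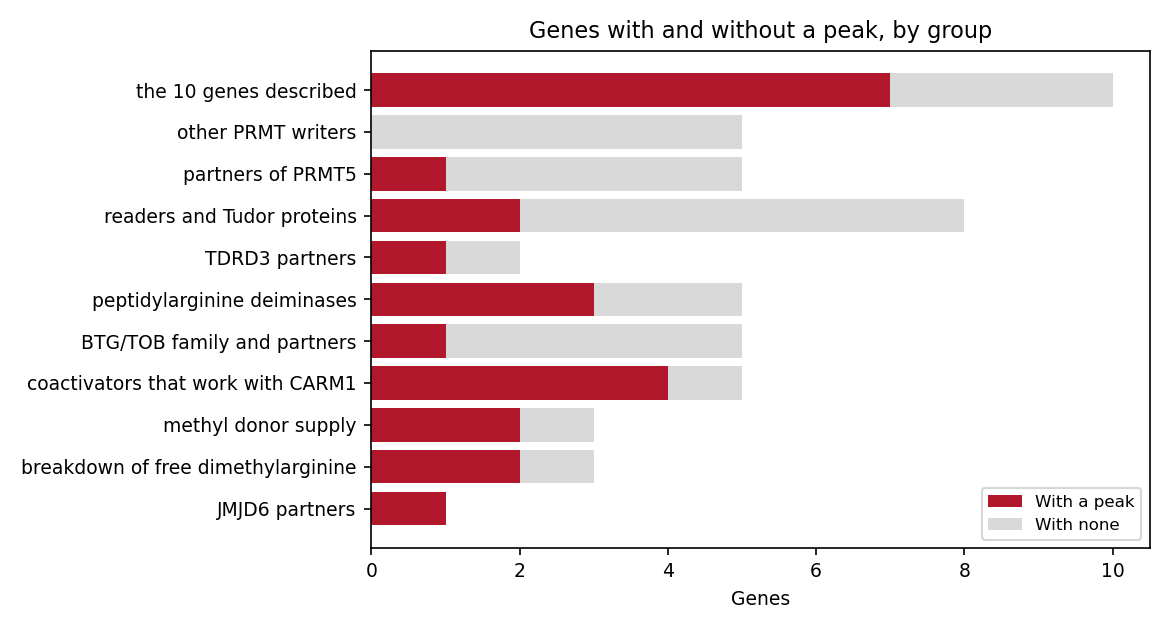
Number of genes with a peak (red) and with none (grey) in the 10 genes described and in each of 10 further lists of arginine methylation genes; the x axis counts genes. The 5 further PRMT genes have none and 7 of the 10 genes described have one, where 47.2% of all protein-coding genes do. In the 10 further lists together, 17 of 42 genes (40.5%) have one. The genes and the lists were chosen with earlier results of these data known, so the split between them is no independent comparison.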

How the data were processed

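One H4R3me2a library and 1 input library from HCT116 cells were compared. The submitters' processing notes name Bowtie2, MACS2, deepTools and GRCh38, and the sources used here state no versions, parameters or library depths. Per the file headers, the deposited table gives the signal at each summit as a pileup (whole fragments, not normalized), the fold as a ratio over the local background, and −log10 p and q. Peaks come from single libraries, and 4 on mitochondrial DNA were left out. Summits were assigned to genes of GENCODE release 44 (chromosomes 1 to 22 and X) with Python 3.11.15, pandas 2.3.3 and NumPy 2.4.6, and the assignment was tested on simulated summits at 200 genes. The background was recovered as (pileup + 1) / fold − 1. It gave back the deposited −log10 p of the 25 peaks as a Poisson tail to within 4.77e-05. Poisson intervals (95%, SciPy 1.17.1) cover counting error only. The genome sequence used equalled 12 of 12 RefSeq promoter sequences (GRCh38.p14) of 9 of these genes. Some sequences and 1 listed gene are not reported here. Named were all 10 genes, all their peaks, their neighbours and genes sharing a summit, and the genes of 10 further lists. The genes and lists were chosen with earlier results of these data known. With 1 library a group no test was added to the authors' peak calls. Alternatives were stricter peak sets, merging, other overlap rules, TSS sets and gene bounds.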

Additional observations from a re-analysis of the deposited data

How the results depend on the processing

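The 25 peaks and their 7 genes depended mostly on the stringency of the peak list. With a −log10 q of 5 or more, 1 peak in 1 gene was left, that of BTG1, and 1 gene with a summit near a TSS. The other genes with a peak, PRMT1, CARM1, PRMT7, CLNS1A, JMJD6 and BTG2, then had 0, and 5.25% of protein-coding genes had a peak. In the 42 further genes 4 peaks in 4 genes were left. With a fold of 4 or more there were 10 peaks, 5 in CARM1, 2 in JMJD6, 1 each in PRMT1, BTG1 and BTG2, and 0 in PRMT7 and CLNS1A, and 23 in the further genes. That setting held 10 of the 25 peaks (40%) against 59% of all peaks, and 38.5% of protein-coding genes had one. With the 16679 peaks of higher −log10 q there were 11 in 5 genes, while 33.1% of protein-coding genes had a peak. Of the 11, CARM1 had 6, JMJD6 2, PRMT1 1, and BTG2 and CLNS1A 0. In that setting 3 genes had one near a TSS. The share of all genes with a summit near a TSS is not given for these stricter peak sets. Merging peaks under 1 kb apart left BTG2 with 1. The 5' end of the gene alone gave 3 genes with a promoter peak, and the share of all genes by that rule is not given here. The canonical TSS alone gave 2, against 21.4% of protein-coding genes. Bounds of the canonical transcript left JMJD6 with 2 and CLNS1A with 0, and those of RefSeq left CLNS1A with 0. Both of these, and TSSs of protein-coding transcripts, were chosen after seeing the data. Counts by any overlap or by gene body alone stayed within 1.5 times. No paired analysis was possible because each group is 1 library, and no sample could be left out.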
